A study of Mus musculus with 20 samples.

Results

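The genes followed here are known from lipid-associated macrophages of obese fat, in the epididymal white adipose tissue (eWAT) of mice: Trem2, Tyrobp, Gpnmb, Spp1, Lgals3, Fabp5, Cd9, Tm4sf19, Slc37a2 and Adgre1. They are 10 of the 14776 genes in the expression table. They were listed by name for their place in this macrophage state and for their higher level in mice on high-fat diet than in mice on chow, so the contrast of HFD with NC is given below as a description, with no test for them. RNA was sequenced from the eWAT of 20 male C57BL/6J mice. The NC group (n = 6) ate normal chow throughout, from 6 weeks of age for 20 weeks. The labels name saline for the HFD group only, and whether NC mice also had gavage is not known. The HFD group (n = 7) was fed a diet with 60% of its energy as fat from 6 weeks of age for 14 weeks, and then received saline for 6 weeks while the diet went on. The SZ-A group (n = 7) had the same diet for the same 20 weeks, with SZ-A by gavage at 400 mg/kg per day over the last 6 weeks. SZ-A is a preparation of alkaloids from mulberry twig (Ramulus Mori). No group received SZ-A on normal chow.

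Macrophages gather around dying fat cells in obese adipose tissue, take up the lipid these release and switch on genes for lipid binding, lysosomes and matrix remodelling. Trem2 is a surface receptor for lipids and lipoproteins that signals through the adaptor protein encoded by Tyrobp (DAP12), and in mouse fat it is needed for this macrophage state to form. Of the other genes, Gpnmb encodes a lysosomal membrane glycoprotein, Spp1 the secreted phosphoprotein osteopontin, Lgals3 the sugar-binding protein galectin-3 and Fabp5 a fatty acid carrier. Cd9 is a tetraspanin, Tm4sf19 another membrane protein and Slc37a2 a sugar-phosphate transporter. Adgre1 encodes F4/80, which marks mouse macrophages in general.

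Values are FPKM, fragments per kilobase of gene scaled to the mapped fragments of the library, as deposited. They come from whole tissue and are shares of a library. Fewer macrophages, less RNA of a gene per macrophage and more RNA from other cells therefore cannot be told apart. The reads recovered from the FPKM values ran from 13567667 to 19388628 per mouse. Several libraries stood apart. In NC replicate 6 the 8 adipocyte markers summed to 186 FPKM, against 2565 to 6615 in the other NC mice, its 8 endothelial markers summed to 10.5 FPKM, and its 3 measured mesothelial and epithelial markers summed to 556 FPKM, the highest of all mice. Its median correlation with the other NC mice was 0.765, against 0.881 or more for the rest of the series. SZ-A replicate 5 had 11.6% of its reads on mitochondrial genes, against 1.67% to 5.11% in the other SZ-A mice, and the fewest reads of its group (15305451). Epithelial transcripts were not confined to NC replicate 6. The same 3 markers summed to 483, 417, 113 and 129 FPKM in NC replicates 1, 2, 4 and 5, and to 21.6 in replicate 3. In SZ-A replicates 2, 3 and 7 they summed to 151, 46.8 and 209 FPKM, against 4.29 to 17.3 in HFD. Aqp9, a gene of the epididymis, was at 51.4, 36.6, 15.4 and 22.7 FPKM in NC replicates 1, 2, 4 and 5, and at 45.9 in replicate 6. It was at 21.96 and 23.6 FPKM in SZ-A replicates 2 and 7, against 0.612 or less in HFD. Such transcripts were thus spread over most NC mice, and every comparison with NC includes them. The part of these features in the results was not tested. The main results that turn on NC replicate 6, SZ-A replicate 5 or SZ-A replicates 2 and 7 are given with and without them.

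All 10 genes are protein-coding in GENCODE M21 on GRCm38, and 7 had promoter windows in RefSeq (GRCm38.p6, 250 bases before to 50 after the start, 8 windows in all); Tyrobp, Fabp5 and Adgre1 had none. On both strands, these windows were searched for TGANTCA, the letters of AP-1-type sites with any base allowed in the middle. It was found in 3 genes: Trem2 9 bases before the start, Slc37a2 107 bases before it and Gpnmb 8 bases after it. Of 32851 mouse windows of this length, 7.81% had it. The middle base was C in Gpnmb, G in Slc37a2 and A in Trem2, so the Trem2 match is to the loose pattern only. The 3 windows are printed because they were the only ones of the 8 with this match, from 250 bases before the start to 20 bases from the start on, with the match in capitals. They lie at chr17:48346151-48346420 on the plus strand for Trem2, chr6:49036268-49036537 on the plus strand for Gpnmb and chr9:37255719-37255988 on the minus strand for Slc37a2.
Trem2: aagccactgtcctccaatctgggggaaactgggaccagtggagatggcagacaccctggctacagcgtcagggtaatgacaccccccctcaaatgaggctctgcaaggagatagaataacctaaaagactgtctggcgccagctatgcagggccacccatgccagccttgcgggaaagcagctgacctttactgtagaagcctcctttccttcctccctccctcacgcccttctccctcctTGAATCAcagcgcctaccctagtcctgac
Gpnmb: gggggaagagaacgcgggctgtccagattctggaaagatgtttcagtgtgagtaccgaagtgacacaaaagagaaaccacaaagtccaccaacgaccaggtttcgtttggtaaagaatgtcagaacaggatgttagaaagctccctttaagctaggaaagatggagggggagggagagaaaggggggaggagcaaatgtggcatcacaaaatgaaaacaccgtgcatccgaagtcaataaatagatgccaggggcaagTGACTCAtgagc
Slc37a2: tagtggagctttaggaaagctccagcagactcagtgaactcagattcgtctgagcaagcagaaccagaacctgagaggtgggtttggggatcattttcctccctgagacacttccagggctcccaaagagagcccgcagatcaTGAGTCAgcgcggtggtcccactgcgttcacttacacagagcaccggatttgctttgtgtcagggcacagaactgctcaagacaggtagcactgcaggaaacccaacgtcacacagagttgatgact
GAGGAAG, the letters of a PU.1-type site, was in the windows of Spp1 (113 bases before the start) and Trem2 (41 bases before it, on the opposite strand), against 13.6% of all windows. TATAAA was found in the Spp1 window only, 211 bases before the start, against 13.6% of all windows. Neither CACGTG (7.15% of all windows) nor TCATGTG (3.77%), the letters of E-box and MITF-type sites, was in any of the 8 windows. These matches are descriptions of sequence and not evidence of binding.

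Trem2 and Tyrobp, the receptor and its adaptor, were low in chow-fed fat and high in HFD fat. Trem2 (chromosome 17, 48346401 to 48354147, plus strand) ran from 0.680 to 2.05 FPKM in NC (median 1.20), from 65.3 to 166 in HFD (median 95.1) and from 16.8 to 136 in SZ-A (median 30.9). The NC mice lay below all others, and the SZ-A mice split, 5 of them at 32.2 FPKM or less and replicates 5 and 6 at 136 and 74.9, inside the HFD range. Mean FPKM was 88.4 times higher in HFD than in NC. Against HFD, Trem2 fell in SZ-A by 1.59 on the log2(FPKM + 1) scale (SE 0.41, limma adjusted p = 0.0137). Tyrobp (chromosome 7, 30413760 to 30417585, plus strand) ran from 5.56 to 47.0 FPKM in NC (median 25.1), from 321 to 755 in HFD (median 447) and from 104 to 595 in SZ-A (median 182). It showed the same layout of mice as Trem2, with SZ-A replicates 5 (595) and 6 (378) inside the HFD range and the other 5 at 198 or less. The mean was 19.8 times higher in HFD than in NC, and Tyrobp fell in SZ-A against HFD by 1.33 (SE 0.36, limma adjusted p = 0.0176). The part of SZ-A replicate 5 can be read directly: without it the differences were larger, -1.91 for Trem2 and -1.59 for Tyrobp.

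**Figure D1:**
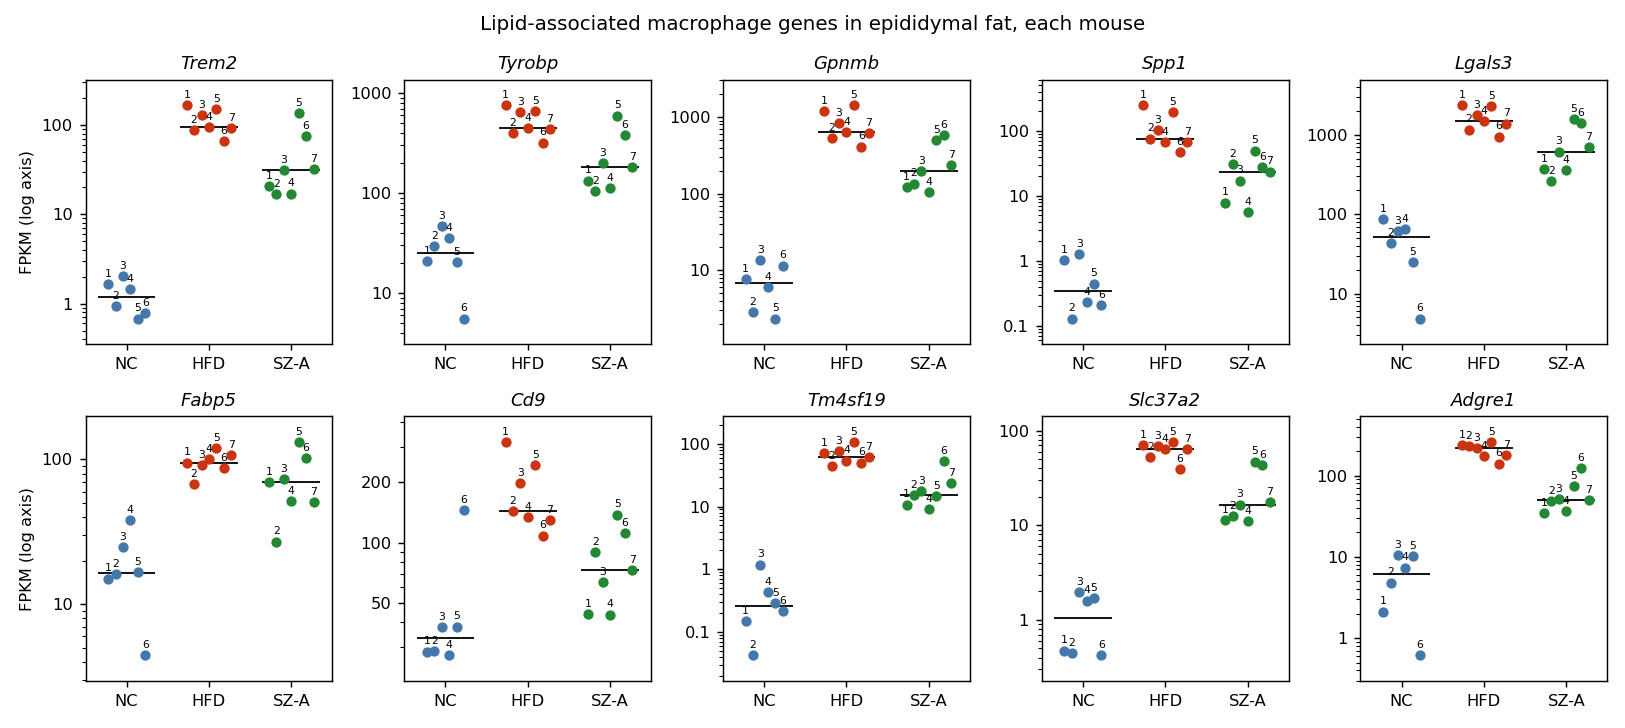
FPKM of each of the 10 genes on log axes; every point is 1 mouse, numbered by replicate, and the bar is the group median (NC n = 6, HFD n = 7, SZ-A n = 7). The HFD mice lie above every NC mouse in all panels but that of Cd9, where NC replicate 6 reached 145 FPKM, and SZ-A replicates 5 and 6 sit near or inside the HFD points in most panels.

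Of the lysosomal and secreted products, Lgals3 and Gpnmb held the highest levels of the 10 in HFD and SZ-A, and Spp1 had the steepest fall. Gpnmb (chromosome 6, 49036546 to 49070929, plus strand) ran from 2.35 to 13.6 FPKM in NC (median 6.92), from 411 to 1420 in HFD (median 635) and from 104 to 576 in SZ-A (median 197). SZ-A replicates 5 (503) and 6 (576) again lay inside the HFD range, and the other 5 lay below it. Mean FPKM was 109 times higher in HFD than in NC, and Gpnmb fell in SZ-A against HFD by 1.76 (SE 0.41, limma adjusted p = 0.00764). Spp1 (chromosome 5, 104435118 to 104441050, plus strand) ran from 0.130 to 1.28 FPKM in NC (median 0.339), from 47.2 to 247 in HFD (median 75.8) and from 5.69 to 49.6 in SZ-A (median 23.5). Only SZ-A replicate 5 (49.6) reached the lowest HFD mouse, replicate 6 (47.2), and the NC values rested on 4 to 34 reads each. Spp1 had the largest ratio of means in the diet contrast, 206, and the largest fall among the 10 in SZ-A against HFD, by 2.30 (SE 0.46, limma adjusted p = 0.00346). Its HFD mice also varied most: replicates 1 (247) and 5 (193) stood above the other 5, which were at 101 or less, and leaving replicate 1 out brought the difference to -2.07. Lgals3 (chromosome 14, 47367751 to 47386160, plus strand) was the most abundant of the 10 in HFD and SZ-A. It ran from 4.84 to 87.4 FPKM in NC (median 52.0), from 950 to 2358 in HFD (median 1489) and from 263 to 1579 in SZ-A (median 614), with SZ-A replicates 5 and 6 at 1579 and 1402. Lgals3 fell in SZ-A against HFD by 1.34 (SE 0.40, limma adjusted p = 0.0261). This call was lost in 5 of the fits that omitted a mouse, namely replicate 1, 3 or 5 of HFD and replicate 1 or 4 of SZ-A, with adjusted p up to 0.058, and in the fit of all 3 groups together (adjusted p = 0.0873).

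Fabp5, the fatty acid carrier, differed from the other 9 in that no fall was detected. Fabp5 (chromosome 3, 10012548 to 10016607, plus strand) ran from 4.44 to 38.1 FPKM in NC (median 16.5), from 67.2 to 121 in HFD (median 95.1) and from 27.1 to 132 in SZ-A (median 70.0). In SZ-A, 4 mice, replicates 1, 3, 5 and 6, lay at or above the lowest HFD mouse, and replicate 5 was above every HFD mouse. The difference of SZ-A from HFD was -0.53 (SE 0.27, 95% interval -1.11 to 0.05, limma adjusted p = 0.171), which leaves room for no change and for a fall nearly as large as that of Cd9. Without SZ-A replicate 5 it was -0.70 (adjusted p = 0.0444). Adipocytes and endothelium also express Fabp5, so its level in whole fat is not a macrophage level alone.

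Cd9 and Tm4sf19 are both proteins of the cell membrane, and their chow levels lay far apart. Cd9 (chromosome 6, 125460266 to 125494791, minus strand), which many cell types express, ran from 27.4 to 145 FPKM in NC (median 33.4), from 109 to 318 in HFD (median 144) and from 43.8 to 138 in SZ-A (median 72.8). The 145 FPKM belonged to NC replicate 6, the library with few adipocyte and many epithelial transcripts. The other 5 NC mice were at 38.1 or less, below every SZ-A and HFD mouse. Cd9 fell in SZ-A against HFD by 1.19 (SE 0.29, limma adjusted p = 0.0105), with replicates 5 (138) and 6 (112) inside the HFD range. Tm4sf19 (chromosome 16, 32400506 to 32408227, plus strand) was the lowest of the 10 in NC. It ran from 0.0425 to 1.19 FPKM there (median 0.255, 1 to 24 reads a mouse), from 44.0 to 107 in HFD (median 62.2) and from 9.22 to 53.5 in SZ-A (median 15.1). Here SZ-A replicate 5 (14.6) sat with the other treated mice, and only replicate 6 (53.5) reached the HFD range. Tm4sf19 fell in SZ-A against HFD by 1.81 (SE 0.31, limma adjusted p = 0.00157).

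Slc37a2, the sugar-phosphate transporter, and Adgre1, the general macrophage marker, had the smallest relative spread of the HFD mice after Fabp5. Slc37a2 (chromosome 9, 37227585 to 37255738, minus strand) ran from 0.424 to 1.96 FPKM in NC (median 1.04), from 39.4 to 75.7 in HFD (median 63.6) and from 11.03 to 47.1 in SZ-A (median 16.5). Replicates 5 (47.1) and 6 (43.1) of SZ-A lay above the lowest HFD mouse and the other 5 at 17.6 or less. It fell in SZ-A against HFD by 1.61 (SE 0.31, limma adjusted p = 0.00282). Adgre1 (chromosome 17, 57358691 to 57483527, plus strand) ran from 0.615 to 10.6 FPKM in NC (median 6.09), from 140 to 258 in HFD (median 215) and from 34.2 to 122 in SZ-A (median 50.3). It was the only one of the 10 whose SZ-A and HFD mice did not overlap, with SZ-A replicate 6 (122) just under HFD replicate 6 (140). Adgre1 fell by 1.86 (SE 0.25, limma adjusted p = 0.000379), the smallest adjusted p of the 10.

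Set against all genes, 9 of the 10 fell in SZ-A at an adjusted p under 0.05, where 13.3% of the 14695 genes tested did, and none rose (9.47% of all genes). Of these, 6 fell by more than 1.5 on the log2 scale, Spp1, Adgre1, Tm4sf19, Gpnmb, Slc37a2 and Trem2, against 0.558% of all genes. The median difference was -1.60 over the 10 genes and 0.03 over all genes. The groups did not overlap for 1 of the 10, Adgre1, against 4.01% of all genes. The HFD mice of this comparison are those that took part in choosing the genes, so the 2 comparisons share them. Without SZ-A replicate 5, 10 of the 10 fell and 8 passed the fold limit; without HFD replicate 1, 8 fell and 5 passed it. Without SZ-A replicates 2 and 7, whose epithelial marker sums were the highest of the group, 8 fell and 4 passed it, with Lgals3 at -1.13 (limma adjusted p = 0.0595). In that fit Trem2 (-1.36) and Slc37a2 (-1.47) still fell but no longer passed the fold limit. SZ-A replicate 3, with the next highest sum (46.8 FPKM), stayed in it.

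**Figure D2:**
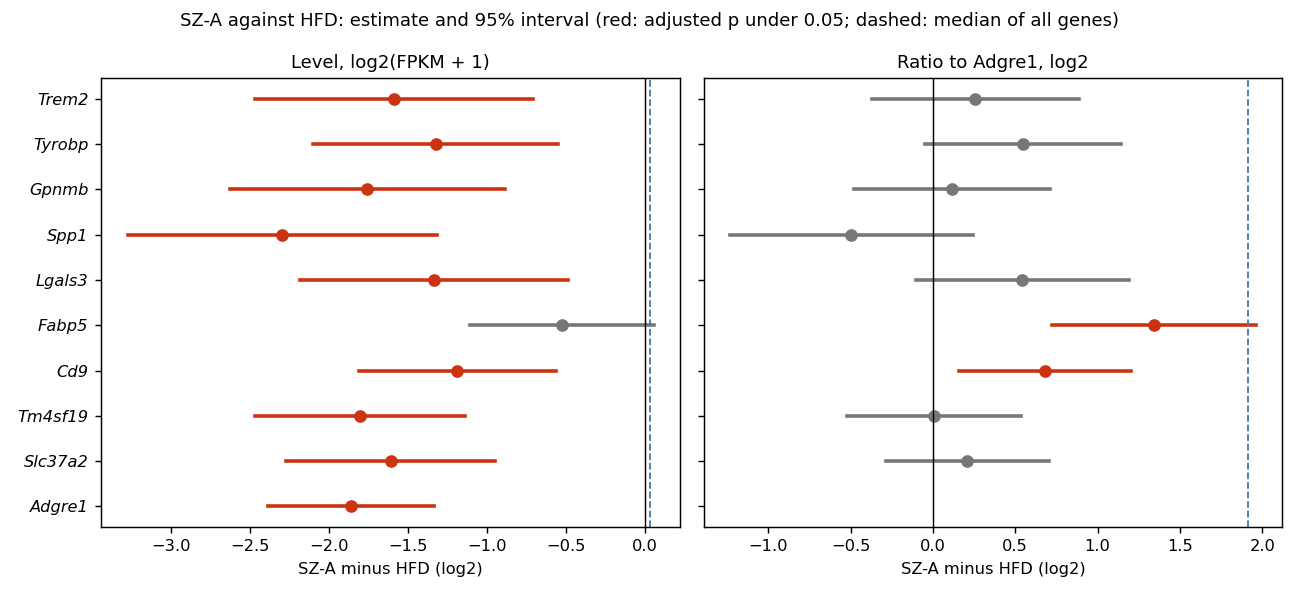
Estimated difference of SZ-A from HFD with its 95% interval (limma), for the level of each gene on the left and for its ratio to Adgre1 on the right; red marks an adjusted p under 0.05 and the dashed line is the median of all genes (0.03 and 1.91). All 10 level estimates lie left of zero, with the interval of Fabp5 reaching 0.05, while in the ratio panel Fabp5 (1.34) and Cd9 (0.68) lie right of zero and the other 7 intervals include zero.

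Levels after treatment differed between the SZ-A mice, and no level before treatment was measured. As a percentage of the HFD mean, the median over the 10 genes was 75.9% in SZ-A replicate 5 and 70.6% in replicate 6, and from 17.8% to 32.1% in the other 5. Replicate 5 is the library with 11.6% mitochondrial reads, and its part in these levels was not tested. Replicate 5 was the highest SZ-A mouse for 7 genes and replicate 6 for 3, and each was among the 2 highest for 9. The pair differed in which genes were high. Replicate 5 ranged from 21.9% of the HFD mean for Tm4sf19 to 138% for Fabp5, and replicate 6 from 24.4% for Spp1 to 107% for Fabp5. SZ-A replicate 4 was among the 2 lowest for 9 genes. In the HFD group, replicate 5 was among the 2 highest for all 10 genes and replicate 6 the lowest for 8. In NC, replicate 3 was the highest for 7 genes and replicate 6 the lowest for 5. The 8 adipocyte markers summed to 869 and 1633 FPKM in HFD replicates 1 and 5. Their sum was 4181 FPKM in HFD replicate 6 and 2452 to 3767 in the rest of that group. In SZ-A they summed to 7061, 6405 and 7557 FPKM in replicates 1, 3 and 4, and to 3240 and 3987 in replicates 5 and 6. Replicates 2 and 7 of SZ-A had 2640 and 2723 FPKM. The part of these sums in the levels was not tested.

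**Figure D3:**
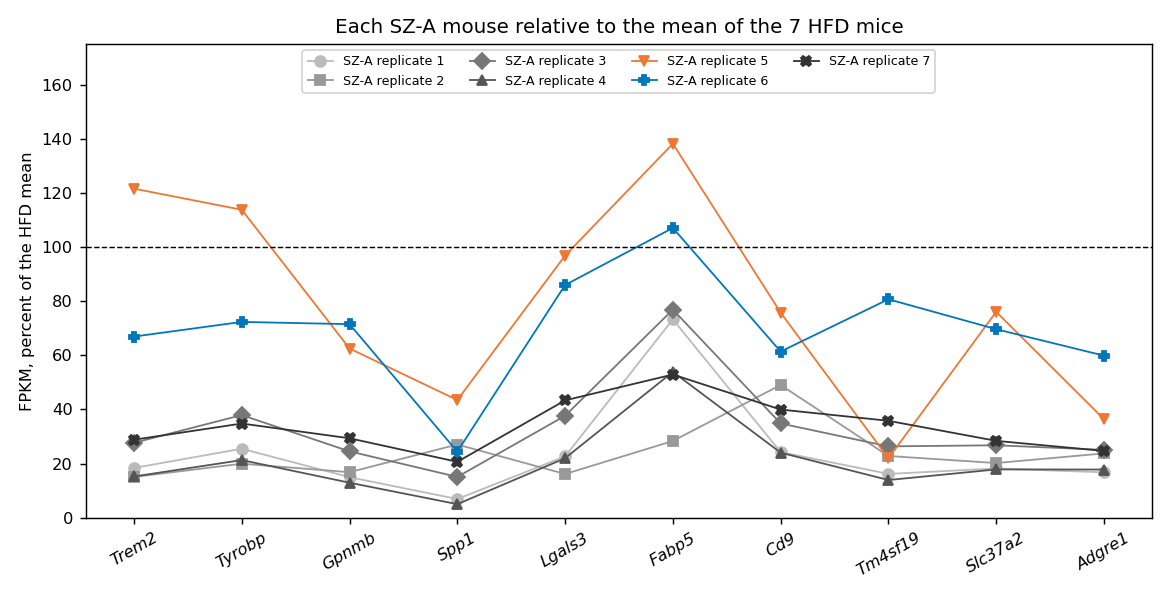
FPKM of each gene in each SZ-A mouse as a percentage of the mean of the 7 HFD mice (dashed line at 100%); lines join the 10 genes of 1 mouse. Replicates 5 and 6 run above the others for most genes, while replicate 5 drops to 21.9% for Tm4sf19 and 36.4% for Adgre1.

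Dividing each gene by Adgre1 in the same mouse asks whether it fell more or less than the general macrophage marker. Trem2, Gpnmb, Tm4sf19 and Slc37a2 gave ratios close to those in HFD, whereas Fabp5 and Cd9 gave higher ones. The Fabp5 ratio ran from 0.291 to 0.622 in HFD (median 0.467) and from 0.558 to 2.05 in SZ-A (median 1.42), with 6 of 7 SZ-A mice above the HFD range. On the log2 scale it rose by 1.34 (SE 0.30, limma adjusted p = 0.000261). The Cd9 ratio ran from 0.623 to 1.36 in HFD (median 0.776) and from 0.915 to 1.86 in SZ-A (median 1.29), with 3 of 7 SZ-A mice above the HFD range, and it rose by 0.68 (SE 0.25, limma adjusted p = 0.0141). Without SZ-A replicates 2 and 7 the Cd9 ratio did not pass (0.58, limma adjusted p = 0.0691), that of Fabp5 did (1.61, limma adjusted p = 0.0001045), and that of Tyrobp passed as well (0.71, limma adjusted p = 0.0415). These were the 2 of 9 ratios called, both higher, where 96.1% of 14694 genes had a higher ratio and the median over all genes was 1.91, because Adgre1 itself fell by more than most genes. The median over the 9 genes was 0.26. A lower ratio was called for 0.0272% of all genes, which were Cd72, Cpa3, Mmp13 and Myh15, named here after their values were seen, and for none of the 9.

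The ratio of Trem2 to Adgre1 ran from 0.377 to 0.707 in HFD (median 0.550) and from 0.347 to 1.83 in SZ-A (median 0.605), with 5 of 7 SZ-A mice inside the HFD range. The difference was 0.26 (95% interval -0.37 to 0.88, limma adjusted p = 0.41). SZ-A replicate 5 alone stood at 1.83, and without it the difference was 0.0020. Gpnmb had 6 of 7 SZ-A mice inside its HFD range of 2.29 to 5.50 and differed by 0.12 (95% interval -0.48 to 0.71, limma adjusted p = 0.69). Tm4sf19 differed by 0.01 (95% interval -0.52 to 0.54, limma adjusted p = 0.978), and Slc37a2 by 0.21 (95% interval -0.29 to 0.71, limma adjusted p = 0.392). The 4 intervals ran from lower bounds of -0.52 to -0.29 up to upper bounds of 0.54 to 0.88, and so include both lower and higher ratios. Spp1 was the only one of the 9 with a lower estimate, -0.50 (95% interval -1.23 to 0.24, limma adjusted p = 0.18), with 3 of 7 SZ-A mice below the HFD range. Tyrobp (0.55, limma adjusted p = 0.071) and Lgals3 (0.54, limma adjusted p = 0.0973) had higher estimates that did not pass, with 4 and 5 of 7 SZ-A mice above the HFD range. In an exact permutation test over 3432 regroupings, two-sided and without adjustment, the Tyrobp ratio gave p = 0.0262 and that of Lgals3 p = 0.0542.

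The choice of marker decided some of these calls. Relative to the mean of 6 other macrophage genes (Csf1r, Fcgr1, Mertk, Aif1, Lyz2 and Cd14), Adgre1 itself was lower in SZ-A by -0.71 (limma adjusted p = 0.00462), so it fell by more than that mean. With this denominator Spp1 (-1.21, limma adjusted p = 0.00485), Tm4sf19 (-0.71, limma adjusted p = 0.0451) and Slc37a2 (-0.50, limma adjusted p = 0.0401) were lower, where 0.415% of all genes were. Fabp5 remained higher (0.63, limma adjusted p = 0.0281; 82.0% of all genes), and Cd9 was at -0.03 (limma adjusted p = 0.874). Trem2 (-0.46, limma adjusted p = 0.121) and Gpnmb (-0.60, limma adjusted p = 0.0576) did not pass. Relative to Csf1r alone, the receptor for macrophage colony-stimulating factor, Spp1 was lower (-0.99, limma adjusted p = 0.0225; 0.191% of all genes), Fabp5 higher (0.85, limma adjusted p = 0.00527; 89.4% of all genes) and Cd9 not called (0.19, limma adjusted p = 0.438). Fabp5 was thus higher with all 3 denominators, and Spp1 lower with 2 of them.

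**Figure D4:**
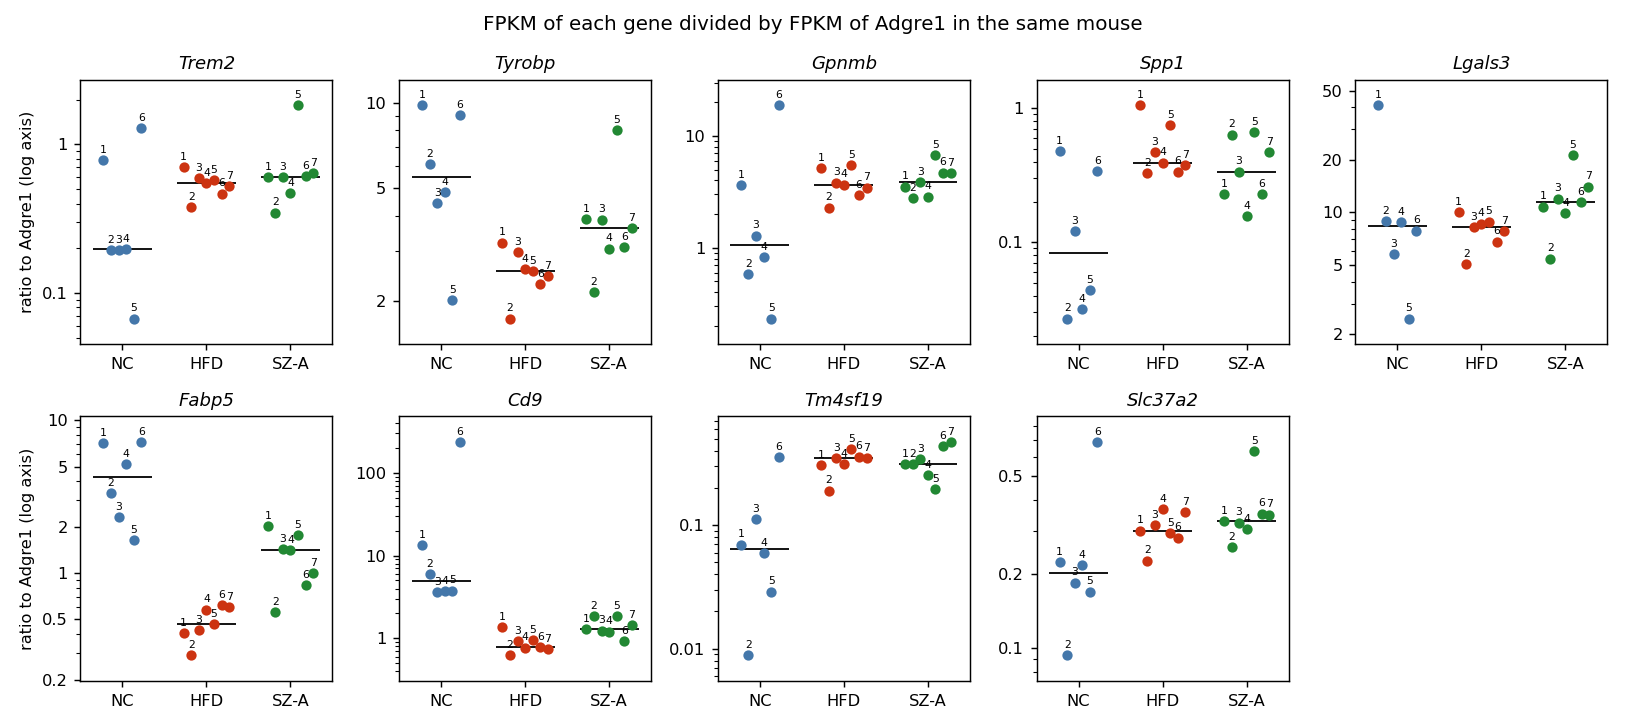
FPKM of each gene divided by that of Adgre1 in the same mouse, on log axes; points are mice numbered by replicate and bars are group medians. The HFD and SZ-A ratios overlap for all 9 genes, least for Fabp5 (6 of 7 SZ-A mice above the HFD range), while the NC ratios scatter widely and lie above HFD in all 6 mice for Fabp5 and Cd9.

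In chow-fed fat the make-up of the 10 was different. Cd9 (51.0 ± 46.4 FPKM, SD, n = 6) and Lgals3 (47.6 ± 29.7) led by mean, but Cd9 was above Lgals3 in only 2 of 6 mice, and without NC replicate 6 Lgals3 (56.2 ± 23.6, n = 5) was above Cd9 (32.2 ± 5.41). They were followed by Tyrobp (26.5 ± 14.3) and Fabp5 (19.2 ± 11.3), and Trem2, Slc37a2, Spp1 and Tm4sf19 had means of 1.26 FPKM or less. In HFD the order was Lgals3 (1631 ± 538, n = 7), Gpnmb (805 ± 374), Tyrobp (523 ± 161), Adgre1 (204 ± 41.9), Cd9 (182 ± 75.7), Spp1 (114 ± 75.7), Trem2 (112 ± 36.5), Fabp5 (95.5 ± 16.7), Tm4sf19 (66.3 ± 21.1) and Slc37a2 (61.9 ± 12.3). In all 7 HFD mice Lgals3 exceeded Gpnmb, Gpnmb exceeded Tyrobp, and Tyrobp exceeded Adgre1. The lower neighbours did not hold their order, since Spp1 was above Trem2 in 2 of 7 HFD mice, Trem2 above Fabp5 in 4 and Tm4sf19 above Slc37a2 in 4. The place of Trem2 depends on the gene length used: its exons in GENCODE M21 cover 4946 bases with a retained-intron transcript included, but its longest coding transcript has 1088, and with that length its HFD mean was 509 FPKM and it ranked 4 of 10. Fabp5 moved likewise, to 345 FPKM. Ratios of FPKM of 1 gene between groups do not depend on this length. Differences on the log2(FPKM + 1) scale do where values are low. The Trem2 mean in NC was 1.26 FPKM, but 5.75 with the shorter length. Spp1 shares 309 exon bases with Gm42793 on its own strand, and Cd9 and Slc37a2 share 218 and 241 with Gm26728 and Gm48081 on the opposite strand. Reads there cannot be told apart in a library without strand, and none of the 3 neighbours is in the table.

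For the diet contrast the ratios to Adgre1 fell into sets, described without a test because HFD against NC helped to choose the genes. All 10 had a higher mean log2(FPKM + 1) in HFD than in NC, as did 46.5% of 14706 genes. All but Cd9 were higher without overlap (12.7% of all genes). Tm4sf19 and Spp1 had higher ratios to Adgre1 in HFD, by 2.43 and 2.34 on the log2 scale, as did Gpnmb (1.33), Trem2 (0.92) and Slc37a2 (0.50). Lgals3 differed by -0.12, with NC ratios from 2.46 to 41.1 and HFD ratios from 5.07 to 10.1. Tyrobp (-1.09), Fabp5 (-3.05) and Cd9 (-3.54) had lower ratios. Single NC mice scattered: for Trem2, 2 of 6 lay above every HFD mouse and 4 below. For Gpnmb 1 lay above and 4 below, and for Slc37a2 1 above and 5 below. NC ratios rest on 29 to 623 Adgre1 reads per mouse, with the 29 in NC replicate 6. Without that mouse the differences were 2.95 for Tm4sf19, 2.71 for Spp1, 2.07 for Gpnmb, 1.36 for Trem2, 0.83 for Slc37a2, -0.14 for Lgals3, -0.94 for Tyrobp, -2.87 for Fabp5 and -2.63 for Cd9, all of the same sign as with it.

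The SZ-A mice stayed well above chow for 9 of the 10 genes. Gpnmb was higher in SZ-A than in NC by 4.91 on the log2 scale (SE 0.47, limma adjusted p = 0.00021), Lgals3 by 4.08 (SE 0.61, limma adjusted p = 0.00212) and Trem2 by 4.02 (SE 0.43, limma adjusted p = 0.000253). Tm4sf19 (3.78), Spp1 (3.73), Slc37a2 (3.34), Adgre1 (3.30) and Tyrobp (3.10) followed, all with a limma adjusted p of 0.00273 or less. Fabp5 rose by 1.93 (SE 0.43, limma adjusted p = 0.0186). Cd9 differed by 0.84 (95% interval -0.01 to 1.68, limma adjusted p = 0.266) with NC replicate 6 and by 1.20 (limma adjusted p = 0.0232) without it, so that 10 of 10 rose without that mouse. These 9 of 10 compare with 4.15% of 14718 genes that rose at an adjusted p under 0.05. The same 9 passed the limit of 1.5 on the log2 scale (1.73% of all genes), and 8, all but Cd9 and Fabp5, did not overlap between groups (3.22% of all genes). The NC mice are shared with the contrast that chose the genes.

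On the log2 scale the SZ-A mean kept 78.6% of the distance between NC and HFD for Fabp5, 75.3% for Lgals3, 73.6% for Gpnmb, 71.7% for Trem2 and 70.0% for Tyrobp. The share was lower for Tm4sf19 (67.7%), Slc37a2 (67.4%), Adgre1 (64.0%), Spp1 (61.9%) and Cd9 (41.3%). The Cd9 share turns on NC replicate 6 (145 FPKM): SZ-A stood above NC by 0.84 with that mouse and by 1.20 without it. The share itself was not computed without that mouse. On the linear FPKM scale the shares were smaller, from 19.96% for Spp1 to 69.7% for Fabp5, with Adgre1 at 27.1% and Trem2 at 41.3%. These shares are descriptions, since the NC and HFD means are those the genes were chosen on. On the log2 scale they also depend on the pseudocount of 1 for genes low in NC. With a pseudocount of 0.01 the diet difference was 7.94 for Tm4sf19, 7.89 for Spp1 and 6.07 for Slc37a2. The order of the genes by share was not tested with other pseudocounts.

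Other genes of the same macrophage state were read from a list of 22. In SZ-A against HFD, 13 fell and none rose (median -1.04). Over all genes, 13.3% fell and 9.47% rose, and the counts of this and the following lists in SZ-A against HFD are to be read against these shares. The 4 largest falls were in the matrix protease Mmp12 (-1.93), the integrin Itgax or CD11c (-1.79), the protease cathepsin K, Ctsk (-1.72), and the lysosomal glycoprotein Cd68 (-1.64), with limma adjusted p of 0.0107, 0.00103, 0.00471 and 0.00288. The smallest differences were in the lipoprotein Apoe (0.10, limma adjusted p = 0.802) and the phosphatase Acp5 (0.15, limma adjusted p = 0.565). Apoe, at 1607 FPKM in NC and 1623 in HFD, is also made by adipocytes. Against NC, 14 of the 22 rose in SZ-A, against 4.15% of all genes, and 16 rose in HFD, against 21.0% of all genes.

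Around Trem2 and Tyrobp, a list of 12 genes holds signalling enzymes and adaptors, the sheddases Adam10 and Adam17, and Ms4a7. Of these, 10 fell in SZ-A against HFD and none rose (median -1.002). The largest falls were in Ms4a7, a membrane protein of macrophages (-1.73), the exchange factor Vav1 (-1.27), the phosphatase Ptpn6 (-1.17) and the kinase subunit Pik3cd (-1.14), with limma adjusted p of 0.000379, 0.00264, 0.00637 and 0.000978. Adam10, the protease that sheds Trem2 from the surface, fell by 0.45 (limma adjusted p = 0.0435), and Card9 differed by -0.25 (limma adjusted p = 0.641). Of 8 genes for binding partners of osteopontin and galectin-3, which are 7 receptor genes and the secreted Lgals3bp, all 8 fell (median -0.71): Cd44 (-1.47), Itga4 (-1.18), Itgav (-0.94) and Itga9 (-0.77) led, Lgals3bp stood at -0.63, and Itgb1 (-0.46) and Itgb5 (-0.61) fell least. Many cell types of fat carry these integrins.

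Regulators of lysosomal, sterol and myeloid genes moved in part. Of 12, 5 fell and none rose (median -0.44). Among those that fell were Spi1, which encodes PU.1 (-1.36), Mitf (-0.86) and Tfec (-0.61), with limma adjusted p of 0.00972, 0.00824 and 0.0433. The LXR genes Nr1h3 (0.05, limma adjusted p = 0.903) and Nr1h2 (0.17, limma adjusted p = 0.501) had the smallest differences. Relatives of the 10 genes by sequence family did not move as a block: of 14 tested, 3 fell and 1 rose (median 0.03). The tetraspanins of leukocytes Cd53 (-1.37) and Cd37 (-1.19) fell (limma adjusted p = 0.00907 and 0.0102), the galectin Lgals9 fell by 0.38 (limma adjusted p = 0.0357) and the widely expressed tetraspanin Cd81 rose by 0.42 (limma adjusted p = 0.0481). Lgals1 (0.07) and Slc37a3 (-0.01) had the smallest differences.

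The general macrophage markers moved with the 10 genes. Of 6, 4 fell in SZ-A against HFD (median -1.29): Fcgr1 (-1.56), Csf1r (-1.37), Cd14 (-1.35) and Lyz2 (-1.23), with limma adjusted p of 0.000369, 0.00043, 0.000815 and 0.0277. Mertk (-0.40, limma adjusted p = 0.172) and Aif1 (-0.62, limma adjusted p = 0.13) did not pass. Their summed level was 1722 to 6046 FPKM in HFD, 871 to 3015 in SZ-A and 39.5 to 510 in NC. Of 11 measured markers of resident macrophages, 6 fell (median -0.62). These were led by Folr2 (-1.98), the mannose receptor Mrc1 (-1.54), the scavenger receptor Stab1 (-1.09) and Pf4 (-0.92), with limma adjusted p of 0.000109, 0.000304, 0.003 and 0.00179, while Lyve1 (0.31) and Cbr2 (-0.06) had the smallest differences. Relative to Adgre1, 9 of these 11 had a higher ratio in SZ-A and none a lower one, where 96.1% of all genes had a higher ratio. The part of general macrophage content in the falls of the 10 genes was not tested.

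Markers of other cells gave the following in SZ-A against HFD. None of 8 adipocyte markers passed, but all 8 had higher estimates in SZ-A (median 0.79). The largest were Adipoq (1.04, limma adjusted p = 0.0836) and Lipe (1.01, limma adjusted p = 0.0535), and the smallest Lep (0.04) and Acaca (0.46). The sum of the 8 was 869 to 4181 FPKM in HFD and 2640 to 7557 in SZ-A. Of 8 fibroblast and progenitor markers 6 fell (median -1.01), led by Col3a1 (-1.89), Col1a1 (-1.63), Mfap5 (-1.21) and Pi16 (-1.21), with Ly6a (-0.04) and Dpp4 (0.16) the smallest. Of 5 mast cell markers 4 fell, Cpa3 (-2.64), Cma1 (-2.55), Tpsb2 (-2.51) and Mcpt4 (-2.46), and Kit differed by -0.43. Endothelial Gpihbp1 and Cd300lg rose, by 1.19 and 0.78, as 2 of 8 markers, with Emcn (0.11) and Cdh5 (0.13) the smallest. One of 4 monocyte markers fell (Ms4a4c, -0.36), as did 1 of 4 of dendritic cells (Flt3, -0.22) and 2 of 7 of lymphocytes (Nkg7, -0.69, and Cd8a, -0.53). Neither of 2 measured neutrophil markers passed, nor any of 3 mesothelial and epithelial markers or the only measured gene of epididymis, Aqp9 (1.58, limma adjusted p = 0.0703), though SZ-A replicates 2 and 7 were far above every HFD mouse in the epithelial sum and in Aqp9. Fibroblast and mast cell markers thus moved in the same direction as the 10 genes. The adipocyte estimates lay in the opposite direction, with none called. The part of these cells in the result was not tested.

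Across the 20 mice, after removing group means, some of the 10 genes deviated together and others did not. These correlations are descriptions, since all genes of a mouse share its library and depth. The correlation of deviations was 0.91 for Tyrobp with Lgals3, 0.86 for Trem2 with Slc37a2 and 0.83 for Trem2 with Gpnmb. It was 0.49 for Trem2 with Adgre1, 0.25 for Gpnmb with Adgre1 and -0.28 for Cd9 with Fabp5. NC replicate 6 weighed on these values: without it the last was 0.28, that of Gpnmb with Adgre1 0.56, and that of Trem2 with Adgre1 0.55. The correlations of Cd9 with Tyrobp and with Adgre1 went from 0.029 and -0.066 to 0.74 and 0.68. Among 12440 genes at 1 FPKM or more, those most like Trem2 were Lat2, a membrane adaptor of myeloid cells (r = 0.98), the lysosomal enzyme Hexa (0.96), the receptor chain Csf2ra (0.96), Cd300c2 (0.96) and Cd200r4 (0.96). Those most like Gpnmb were Uap1l1 (0.92), the lysosomal proton pump subunit Atp6v1b2 (0.91), the cyclin Ccnf (0.91), Vat1 (0.90) and Was, the actin regulator of blood cells (0.89). Without NC replicate 6, 4 of the 5 genes for Trem2 and 3 of the 5 for Gpnmb remained among the 5 most alike.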

How the data were processed

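Poly(A) mRNA was purified from total RNA of eWAT of 20 mice and sequenced with a library kit that does not mark strand. The authors aligned reads to GRCm38 with HISAT2, counted them with featureCounts 1.5.0-p3 per the labels, and deposited FPKM per gene for a filtered set of 14776 genes; the annotation release and the gene filter are not given in the sources used here. Groups came from the labels (NC 6, HFD 7, SZ-A 7). Members and gene lists were chosen with earlier results of these data known. Named genes were all 10 members and, from each list, up to 4 genes with the largest called difference and up to 2 with the smallest; 1 gene that this rule names is not reported here.

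Limma 3.58.1 (R 4.3.3, eBayes with trend) was fitted per pair of groups on log2(FPKM + 1) of genes averaging 0.1 FPKM or more across the mice compared, with Benjamini-Hochberg adjustment over all genes. "Rose" and "fell" mean an adjusted p under 0.05; a further limit was a log2 difference above 1.5, both after the study's methods. The ratio fit used log2(FPKM / FPKM of Adgre1) without a pseudocount. Fold changes on this scale understate changes of low genes. Read counts were recovered from FPKM and GENCODE M21 exon lengths: 95.9% to 96.3% of values under 1000 reads were whole within 0.01, and 0 pairs of mice were identical. The scripts were tested on simulated data. Replicates are separate mice, and p-values measure the spread between them. Alternatives were other pseudocounts, filters, scalings, denominators, voom on recovered reads, a replicate block, all groups in a fit, and leaving out each mouse; the length of the longest coding transcript and leaving out SZ-A replicates 2 and 7 were added after seeing the data, as were ratios and correlations without NC replicate 6. Pandas 2.3.3, NumPy 2.4.6 and matplotlib 3.10.9 were used under Python 3.11.15.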

Additional observations from a re-analysis of the deposited data

Results flagged for a closer look

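Of 57 groups of 6 or 7 mice examined, 11 held a mouse whose gap to its nearest neighbour was large for the range of its group by Dixon's criterion. By chance it marks about 1 in 20 groups of normally distributed values. Here it was applied to FPKM and ratios without a log, and all 11 marks were the highest mouse of a group. The count is therefore not to be read against 1 in 20. NC replicate 6, which had few adipocyte transcripts and 29 Adgre1 reads, gave 5 of them. They were the Cd9 level (145 FPKM) and the ratios to Adgre1 of Cd9 (236), Gpnmb (18.8), Tm4sf19 (0.355) and Slc37a2 (0.689). SZ-A replicate 5, the mouse with 11.6% mitochondrial reads, gave 3, the ratios to Adgre1 of Trem2 (1.83), Tyrobp (8.01) and Slc37a2 (0.633). The others were the Tm4sf19 level in SZ-A replicate 6 (53.5 FPKM) and in NC replicate 3 (1.19 FPKM), and the Lgals3 ratio in NC replicate 1 (41.1). The ratios share the same Adgre1 value within a mouse, so the marks within a mouse are not independent.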

How the results depend on the processing

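In SZ-A against HFD, 127 genes passed both limits; the count was 337 with a pseudocount of 0.1, 485 with 0.01, 458 with voom on recovered reads and 3349 by adjusted p alone, and 80 (without HFD replicate 1) to 192 (without SZ-A replicate 6) when a mouse was left out. In SZ-A against NC the 263 genes became 399 with a pseudocount of 0.01, 415 with voom and 678 by adjusted p alone, and 187 to 340 without a mouse. In HFD against NC the 1172 genes became 2036 and 2295 with pseudocounts of 0.1 and 0.01, 2239 with voom and 6047 by adjusted p alone, and 1052 to 1350 without a mouse. Of the 10 genes, 8 to 10 fell in SZ-A against HFD without a mouse and 4 to 8 passed the fold limit; in SZ-A against NC, 9 to 10 rose and 9 passed it in every such fit. Of the ratios, 14125 genes were called in all (13900 to 14285 without a mouse), and of the 9 ratios 2 (2 to 4 without a mouse, 4 without SZ-A replicate 2), 4 with the mean of 6 macrophage genes as denominator and 1, Fabp5, with all 3 groups in the fit, where Cd9 had an adjusted p of 0.305. With the mean of 6 macrophage genes 7 of the 9 ratios changed sign, because Adgre1 itself fell more than that mean: Cd9 (-0.033), Tm4sf19 (-0.71), Slc37a2 (-0.50), Trem2 (-0.46), Gpnmb (-0.60), Tyrobp (-0.16) and Lgals3 (-0.17). Without SZ-A replicate 2 the Tyrobp ratio (adjusted p = 0.0322) and the Lgals3 ratio (adjusted p = 0.0286) were called, as was that of Tyrobp without SZ-A replicate 6 (adjusted p = 0.0409), all by limma. The diet difference of the genes lowest in NC grew with a pseudocount of 0.01, to 7.94 for Tm4sf19, 7.89 for Spp1, 6.50 for Trem2 and 6.07 for Slc37a2. Replicate numbers did not pair the mice: correlations of same-numbered mice ran from -0.40 to 0.39 for SZ-A and HFD and from -0.41 to 0.59 for SZ-A and NC. With a replicate block, SZ-A against NC gave 118 genes and 6 of the 10, losing Tyrobp (adjusted p = 0.0558), Lgals3 (0.0565) and Fabp5 (0.0919). Without NC replicate 6 the correlation of Cd9 with Fabp5 turned from -0.28 to 0.28. Scaling by median ratios moved the median of all genes by less than 0.1 in each comparison. The cause of these changes was not tested except where stated. Depth limits the NC levels of Tm4sf19 and Spp1, at 1 to 34 reads a mouse.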
